A study of Mus musculus with 2 samples.

Results

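Cyp21a1 is the mouse gene for steroid 21-hydroxylase, and its many splice forms were read here as long reads of adrenal gland RNA. Its members were all transcript models that the deposited tables name Cyp21a1, of every class, joined to their exons in the annotation deposited with each library. There were 152 models with 6639 reads in replicate 1, of 62971 models in that library, and 102 models with 5343 reads in replicate 2, of 67032. The study has 1 group of 2 libraries, each made from adrenal gland tissue of the strain B6CASTF1/J (F1 animals of C57BL/6J and CAST/EiJ), males at an age of 36 days. No treatment is named and no condition is compared, so replicate 1 is set against replicate 2. The labels name the same donor for both libraries, and they give the animal number once as the same and once as different. Separate animals are therefore not certain, and the spread between the libraries may be technical. Reads of the parental alleles were not separated. The gene was chosen by its number of forms in these files, so that number and its place among genes are descriptions with no test.

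21-hydroxylase is a cytochrome P450 of the endoplasmic reticulum. It turns progesterone into deoxycorticosterone, on the path to corticosterone, the main glucocorticoid of the mouse, and to aldosterone. Electrons reach it from Por, the P450 reductase. In the human adrenal, loss of the orthologous enzyme is the usual cause of congenital adrenal hyperplasia, and a nearby pseudogene copy exchanges sequence with it. The mouse also has a pseudogene copy, Cyp21a2-ps, beside complement C4 genes on the same chromosome.

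The gene (ENSMUSG00000024365.9) lies on the minus strand of mm10 at chr17:34801348-34804561. The annotation, GENCODE M21, gives it 3 transcripts, of which the coding transcript has 10 exons, 2058 bases and an open reading frame of 487 codons. All reads of the Known class followed the introns of this coding transcript. The other annotated transcripts, a short processed transcript and a retained-intron transcript, had no Known read. An intron chain, the ordered list of the introns that a model removes, is called a form below. The sequences shown are those of frequent changes whose letters lie in the M21 transcripts, which carry the C57BL/6J letters, read 5′ to 3′. The acceptor 18 bases before exon 4, in 26 and 22 reads, lies inside intron 3 and is not shown, since its letters were not available. Capitals mark the bases that a form leaves out, and for intron 8 the bases that a form keeps, with up to 15 bases of the joined exons on either side in lower case.
exon 2, skipped (chr17:34804044-34804133): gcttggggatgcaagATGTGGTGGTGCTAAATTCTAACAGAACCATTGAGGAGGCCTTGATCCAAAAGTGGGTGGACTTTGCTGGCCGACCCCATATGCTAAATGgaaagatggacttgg
exon 4, skipped (chr17:34803348-34803443): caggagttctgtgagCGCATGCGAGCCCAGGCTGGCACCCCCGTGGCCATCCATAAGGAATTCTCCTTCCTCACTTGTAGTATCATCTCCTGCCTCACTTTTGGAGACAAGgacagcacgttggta
exon 7, acceptor 51 bases in (chr17:34802821-34802871): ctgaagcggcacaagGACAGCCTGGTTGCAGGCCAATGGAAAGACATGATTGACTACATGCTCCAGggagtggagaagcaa
exon 2, acceptor 25 bases in (chr17:34804109-34804133): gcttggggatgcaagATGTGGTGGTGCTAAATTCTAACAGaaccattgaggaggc
exon 8, acceptor 6 bases in (chr17:34802469-34802474): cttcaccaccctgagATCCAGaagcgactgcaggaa
exon 5, acceptor 5 bases in (chr17:34803257-34803261): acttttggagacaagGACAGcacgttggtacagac
exon 7, acceptor 5 bases in (chr17:34802867-34802871): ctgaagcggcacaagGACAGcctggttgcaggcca
intron 8, retained (chr17:34802237-34802304): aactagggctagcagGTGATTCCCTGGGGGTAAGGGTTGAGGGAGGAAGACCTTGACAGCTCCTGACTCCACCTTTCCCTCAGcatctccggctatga
Each of the 5 moved acceptors shown leaves out a stretch that ends in AG, the last bases of nearly all introns. Exons 5 and 7 begin with the same 5 bases.

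Cyp21a1 was among the most abundant transcripts of the gland in both libraries. It held 14674 CPM (counts scaled by the library's endogenous total) in replicate 1 and 11537 CPM in replicate 2, a mean of 13106 ± 2218 CPM (SD, n = 2). By reads of every class it ranked 2 of 15683 annotated genes in each library, and by full-length reads, those of the Known, NIC and NNC classes, it ranked 1 with 5790 and 4838 reads. Its ratio of replicate 1 over replicate 2 was 1.27 (exact conditional 95% interval 1.23 to 1.32), a log2 ratio of 0.35. It passed Fisher's exact test on reads (Benjamini-Hochberg adjusted p = 2.2e-37) but stayed under the 2-fold change set for a call. Of 8135 genes tested, 6.47% passed the adjusted p at any fold and 3.16% passed it with a 2-fold change. This test compares these 2 libraries and not conditions.

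The other genes of the steroid pathway mostly lay higher in replicate 1 too. Of 17 listed genes, 15 had enough reads to be tested, 11 were higher in replicate 1 at an adjusted p under 0.05, and 1 was lower. Over all genes tested 3.34% were higher and 3.12% lower by that rule. These shares are not matched for depth, and with many reads the test passes small ratios, as for Cyp11b1 at 1.12. The median log2 ratio of the tested members was 0.34, against 0.03 over all genes tested. Star, which brings cholesterol into mitochondria, stood at 11197 CPM in replicate 1 against 7504 CPM in replicate 2. Cyp11a1, which cleaves the cholesterol side chain, stood at 27394 and 23455 CPM. Nr5a1, the nuclear receptor that drives steroidogenic genes, reached 606 and 279 CPM and was the 1 member past the 2-fold change. Hsd11b1, which regenerates corticosterone, was the lower member, with 92.8 and 175 CPM. Cyp17a1, the 17-hydroxylase that adult mouse adrenals are known to lack, had 1 and 3 reads, and Hsd11b2, which inactivates corticosterone, had none in either library.

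The labelled tissue carried its defining markers, and the libraries differed in the genes of other tissues. The 5 cortex markers summed to 45825 CPM in replicate 1 and 37119 CPM in replicate 2. The sums of the 4 medulla markers were 7108 and 10054 CPM. All 9 pancreas acinar markers had 0 reads in replicate 1 and 3026 reads together in replicate 2, and 5 liver markers had 1 and 204 reads. With these 14 genes left out, the log2 ratio of Cyp21a1 was 0.34. The part of the other tissue shares in its ratio was not tested, and fewer cortex cells cannot be told apart from less RNA per cell.

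Most Cyp21a1 reads followed the annotated chain, and the rest fell into a few kinds of change. Of 6522 and 5206 spliced reads, 82.2% (95% Wilson interval 81.3 to 83.1) in replicate 1 and 88.0% (87.1 to 88.8) in replicate 2 had all 9 annotated introns removed. Chains that matched the annotation but lacked its first introns held 9.97% and 5.99%. Chains that kept an internal intron held 3.51% and 2.46%. Chains with a splice site that Cyp21a1 transcripts do not have in M21 held 3.07% and 2.42%, and new joins between annotated sites 1.21% and 1.11%. In each library 1 further read lacked the last introns. The tables count reads and not molecules, so these intervals cover counting error only.

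In all there were 186 chains, 151 in replicate 1 and 101 in replicate 2, of which 66 occurred in both. The shared chains held 98.4% of the spliced reads of replicate 1 and 99.3% of those of replicate 2. The 85 chains seen only in replicate 1 held 107 reads, at most 4 each, and the 35 seen only in replicate 2 held 39 reads, at most 2 each. With at least 5 reads in each library there were 23 chains. The ends of the models were shared widely: 134 of 152 models in replicate 1 and 92 of 102 in replicate 2 ended at the annotated 3′ end, and these held 6596 and 5321 reads. At the 5′ side most reads lay in the 10 and 9 models that began at the start of the coding transcript, with 5412 and 4605 reads. The 117 and 78 models that began at the start of the annotated processed transcript, inside exon 1, held 873 and 386 reads. A further 117 and 137 reads were unspliced, in 1 single-exon model of the Genomic class in each library.

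**Figure D1:**
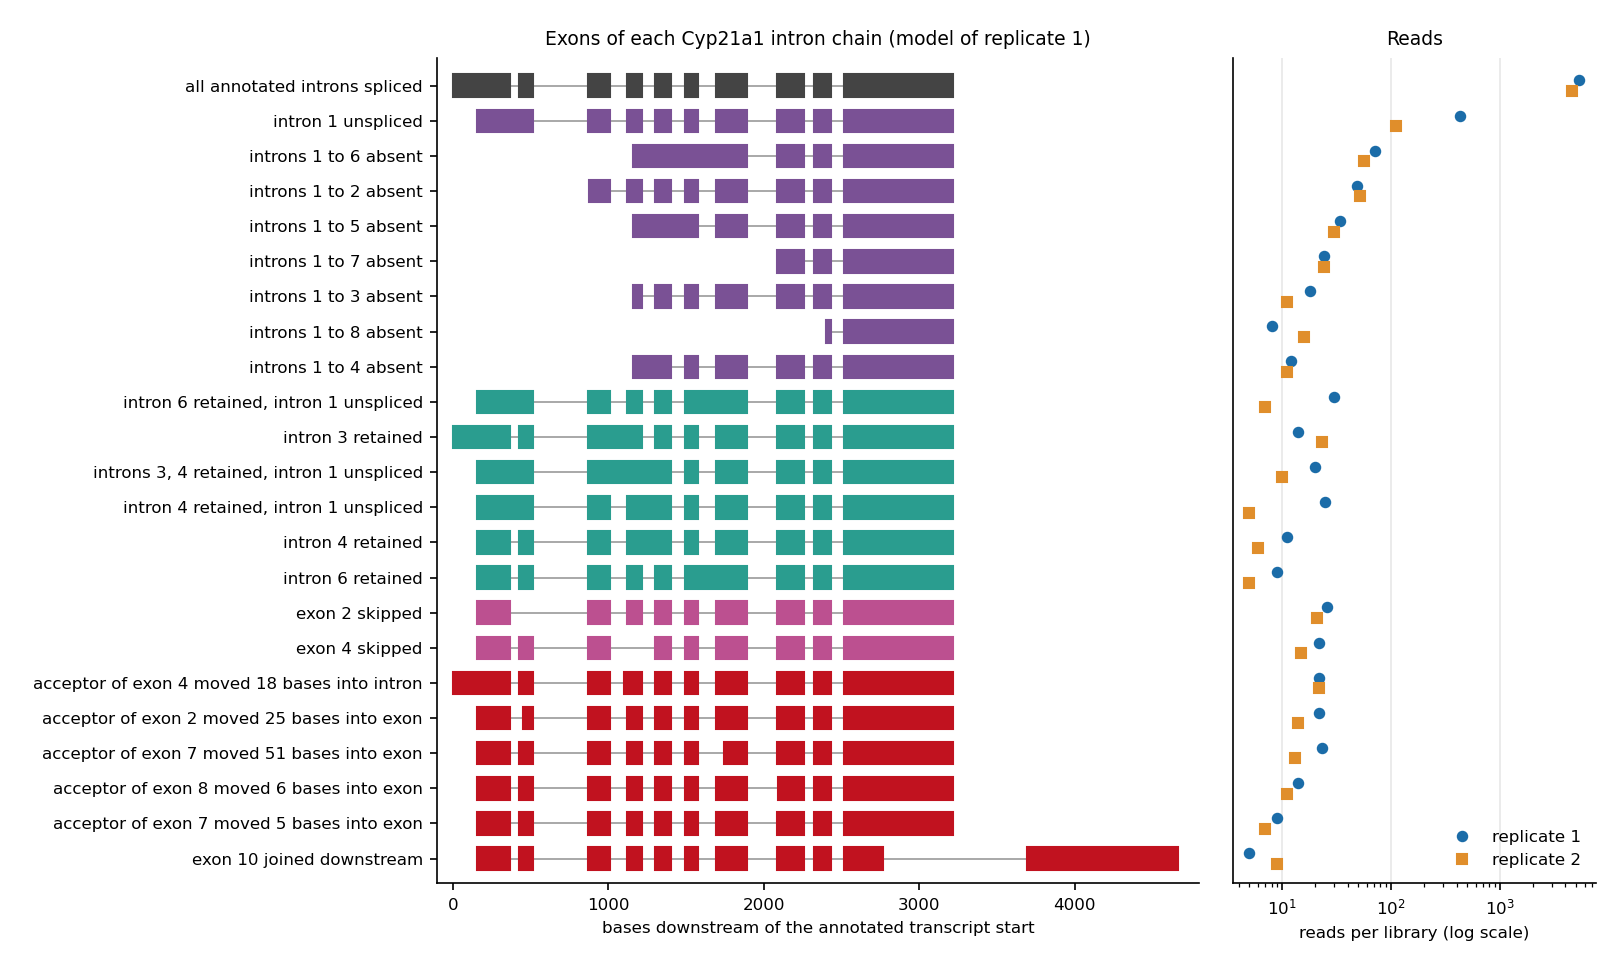
The 23 Cyp21a1 intron chains with at least 5 reads in each library, drawn to scale as exons (boxes) and introns (lines) against the distance in bases from the annotated transcript start, with reads per library on a log axis (circles replicate 1, squares replicate 2). Colours mark the annotated chain (grey), chains without the first introns (purple), retained internal introns (teal), new joins of annotated sites (magenta) and unannotated splice sites (red). The annotated chain holds 5363 and 4581 reads, the chain with intron 1 unspliced 433 and 111, and each of the others 72 or fewer.

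The chain that removed introns 2 to 9 but not intron 1 was the second most frequent. It had 433 reads in replicate 1, 6.64% of spliced reads (6.06 to 7.27), and 111 reads in replicate 2, 2.13% (1.77 to 2.56). The intervals did not overlap, and the share differed in Fisher's exact test (adjusted p = 7.8e-30, over 2563 chains of all genes). The annotated chain was lower in replicate 1 by the same test (adjusted p = 3.1e-15). These 2 were the chains that passed, of 32 Cyp21a1 chains tested over all spliced classes, and over all genes 0.78% passed.

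No chain without 2 or more of the first introns passed that test. Together with intron 1 alone there were 8 such chains, each present in both libraries. The chain without introns 1 to 6 had 72 and 57 reads, 1.10% and 1.09% of spliced reads. The chain without introns 1 and 2 had 49 and 52 reads, and that without introns 1 to 5 had 34 and 30. The 4 remaining chains had 8 to 24 reads in replicate 1 and 11 to 24 in replicate 2. For each of these the Wilson intervals of the libraries overlapped.

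**Figure D2:**
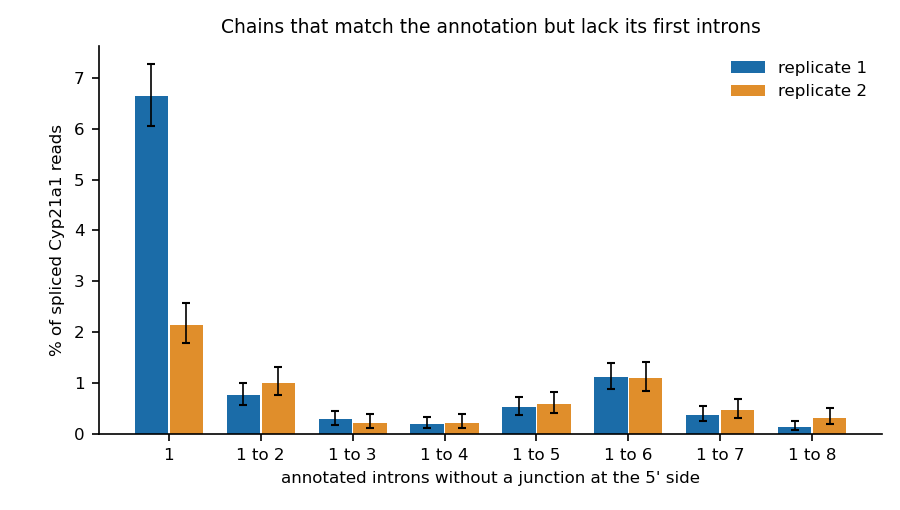
Share of spliced Cyp21a1 reads (%) in chains that match the annotation but have no junction for its first introns, by how many are absent; bars are replicate 1 (blue) and replicate 2 (orange), with 95% Wilson intervals. The chain without intron 1 alone stands at 6.64% and 2.13%, and the other 7 chains lie under 1.2% in both libraries.

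The deposited model of the chain without intron 1 starts inside exon 1 in both libraries, at the start of the annotated processed transcript, so as drawn it keeps intron 1, which is 64 bases long. A model's ends are not those of each of its reads. Retention of intron 1 and reads that stop short of it therefore cannot be told apart in these tables. Counted by the span of the models, intron 1 was unspliced in 10.3% of reads (9.55 to 11.05) in replicate 1 and in 3.82% (3.32 to 4.39) in replicate 2.

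Reads without the junction of intron 1 also kept other introns more often. Where intron 1 was removed and the rest could be judged, 53 of 5416 reads of replicate 1 (0.98%) and 58 of 4639 of replicate 2 (1.25%) kept another annotated intron. Where intron 1 was not removed but intron 2 was, 168 of 601 reads (28.0%, 24.5 to 31.7) and 63 of 174 reads (36.2%, 29.4 to 43.6) did. The intervals of these kinds of read did not overlap in either library, and the shares are given as a description.

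Retention of the internal introns was uneven along the gene. It was counted only in reads with a junction somewhere on each side of the intron, so that a truncated end is not counted as retention. Reads that lack introns further to the 5′ side can still enter. Intron 4 was kept in 2.19% of such reads (1.86 to 2.58) in replicate 1 and in 1.09% (0.84 to 1.42) in replicate 2. Intron 3 was kept in 1.54% and 1.502%, and intron 6 in 1.57% and 0.81%. Introns 7 and 8 were kept in 0.80% and 0.74% of reads in replicate 1 and in 0.45% and 0.95% in replicate 2. The intervals of the libraries overlapped for introns 3, 7 and 8 and not for introns 4 and 6. The same count was not made over the introns of other genes, so this is a description only.

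By this count introns 2 and 5 were almost always removed. Intron 2 was kept in 1 of 5605 reads in replicate 1 and in 3 of 4779 in replicate 2, and intron 5 in 4 of 6359 and 3 of 5061. Counted by the span of the models, where a truncated read can count as unspliced, intron 5 was unspliced in 1.71% and 0.69% of reads, in replicate 1 more than introns 3, 7 and 8 (1.55%, 0.80% and 0.75%). Intron 2, with 352 bases, is the longest of the gene, while intron 5, with 88 bases, is close in length to intron 4, with 86. A relation of length to retention was not tested.

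Reads that kept several introns show how the kept introns were combined. They were chosen for keeping at least 2 of the internal introns 2 to 8 (116 reads in replicate 1 and 52 in replicate 2, in 45 chains), so the shares below describe these reads and are no separate evidence on which introns are kept. Intron 2 was removed in 99.1% and 96.2%, and intron 5 in 96.6% and 98.1%. In the same reads intron 4 was removed in 15.5% and 15.4%, intron 3 in 31.9% and 9.62%, and intron 6 in 50.9% and 51.9%. Introns 7 and 8 were removed in 64.7% and 68.1% in replicate 1 and in 59.6% and 50% in replicate 2. Introns 2 and 5 lay above every other internal intron in both libraries. Intron 9, the last, was removed in 98.3% and 100% of these reads.

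Some pairs of neighbouring introns were also set side by side within single reads. Intron 5 was removed and intron 6 kept in 95 reads of replicate 1 and 37 of replicate 2, while the reverse occurred in 1 and 3 reads. This contrast follows from the low retention of intron 5 given above and is no separate evidence. Between introns 6 and 7, intron 6 was removed and intron 7 kept in 27 and 9 reads, and the reverse occurred in 76 and 25. Other pairs changed direction between the libraries. Intron 3 was removed and intron 4 kept in 65 and 13 reads, and the reverse occurred in 26 and 32. Intron 7 was removed and intron 8 kept in 27 and 29 reads, and the reverse occurred in 30 and 6.

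**Figure D3:**
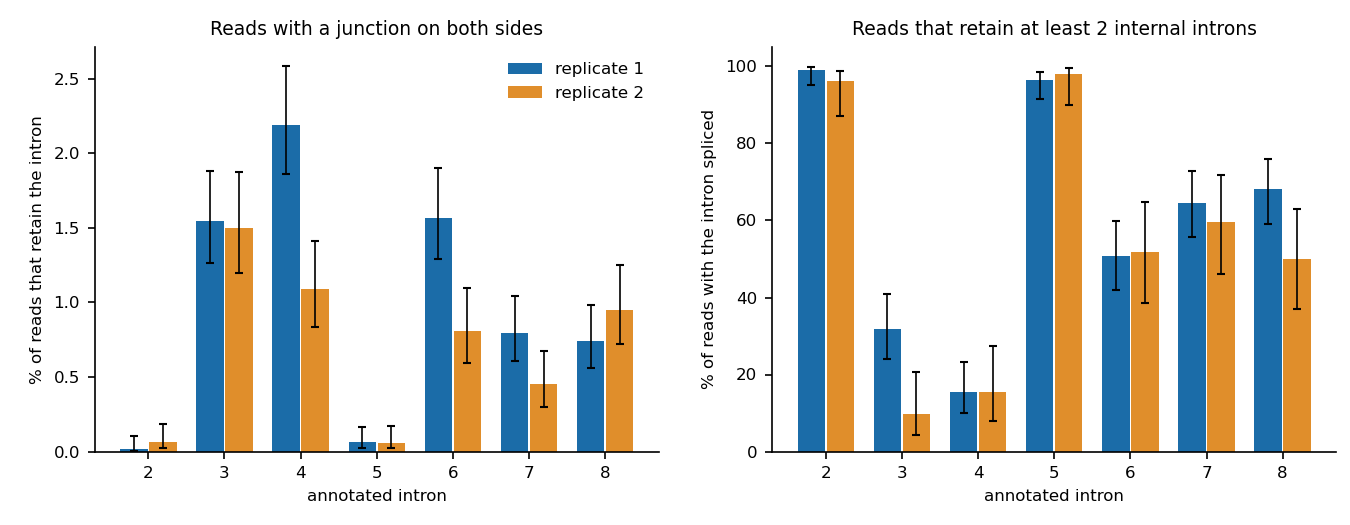
Splicing of the internal introns of Cyp21a1, replicate 1 in blue and replicate 2 in orange, bars with 95% Wilson intervals. Left: share of reads (%) that keep the intron, among reads with a junction on both sides of it. Right: share of reads (%) in which the intron is removed, among the 116 and 52 reads that keep at least 2 internal introns; introns 2 and 5 stand above 96% in both libraries and intron 4 near 15%.

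The forms with a kept intron were made up of combinations. The chain that kept intron 6 and lacked the junction of intron 1 had 30 reads in replicate 1 and 7 in replicate 2. The chain that kept intron 3 alone had 14 and 23, intron 4 alone 11 and 6, and intron 6 alone 9 and 5. Introns 3 and 4 kept together, with intron 1 unspliced, had 20 and 10 reads, and intron 4 with intron 1 had 25 and 5. None of these passed the test of shares over all spliced classes. Intron 8, printed above, is the only one whose full letters are in the transcripts used here. A transcript that keeps it and removes all other annotated introns reaches a stop codon after 364 codons in place of 487.

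Changes at the exons held few reads. Of 67 junctions that the coding transcript does not have, 27 occurred in both libraries, and the 67 held 290 junction reads in replicate 1 and 193 in replicate 2. Other acceptors made up 161 and 102 of these, skipped exons 58 and 44, and other donors 21 and 13. An acceptor is the 3′ end of an intron and a donor its 5′ end.

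Exon 2, of 90 bases, was skipped in 28 reads of replicate 1 and 21 of replicate 2, 0.43% and 0.40% of spliced reads. Exon 4, of 96 bases, was skipped in 22 and 17 reads. Both lengths are multiples of 3, and the reading frames of the skipped forms ran to 457 and 455 codons. Here and below, codons are given for the form with the named change and no other, while reads count every chain with that junction. The lengths of exons 5, 6 and 7 are multiples of 3 as well, but exon 5 was skipped in 1 read of each library and no read skipped exon 6 or exon 7 alone.

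The moved acceptors fell on both sides of the frame. The acceptor 51 bases into exon 7 was used in 27 and 15 reads and left 470 codons. The acceptor 6 bases into exon 8 was used in 18 and 12 reads and left 485 codons. An acceptor 18 bases before exon 4, inside intron 3, was used in 26 and 22 reads, and its length is also a multiple of 3. By length these 3 keep the frame of the exons that follow. For the acceptor before exon 4 no stop was computed, since the letters of the added bases were not available.

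Others shift the frame. The acceptor 25 bases into exon 2 was used in 23 and 17 reads and reached a stop after 73 codons. The acceptor 5 bases into exon 5 was used in 23 and 11 reads, and that 5 bases into exon 7 in 11 and 8. The forms with that change alone, of 4 and 2 reads and of 9 and 7 reads, each reached a stop after 250 codons. For exon 5, the chain that also left intron 1 unspliced, with 11 and 4 reads, had no stop computed. The site in exon 5 is the acceptor of the annotated retained-intron transcript. An acceptor 14 bases before exon 2, that of the annotated processed transcript, was used in 4 and 6 reads and left 76 codons. A rarer change was an acceptor 5 bases into exon 3, in 8 and 1 reads. A donor 62 bases into exon 8 was used in 9 and 2 reads, and exons 2 and 3 were skipped together in 2 and 5. The forms with only 1 of these changes reached a stop after 142, 347 and 80 codons in this order. They had 5 and 1, 1 and 1, and 2 and 5 reads. Over all junctions inside the gene that the coding transcript does not have, the sites of the other annotated transcripts included, and whose length change was known, 138 of 245 junction reads in replicate 1 (56.3%, 50.1 to 62.4) and 99 of 165 in replicate 2 (60.0%, 52.4 to 67.2) changed the length by a multiple of 3. A share above the level of unselected lengths was not tested.

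New introns within an exon made up 5 and 6 junction reads, and other joins inside the gene 8 and 1. The rest of the junctions left the gene at its ends. A donor in exon 10, shortly before the stop codon, was joined to a place beyond the annotated 3′ end in 8 and 11 reads, and another donor in exon 10 was joined to the same place in 9 and 2. In all 13 junctions reached beyond that end, with 33 and 19 junction reads. An exon upstream of the annotated start was joined to exon 1 in 2 and 8 reads and left the frame of 487 codons as it was. In 5 and 3 reads the last exon of Cyp21a1 was joined to a site next to the pseudogene Cyp21a2-ps, which lies on the same strand at chr17:34719813-34722252.

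Cyp21a2-ps was itself read, with 114 reads in replicate 1 and 64 in replicate 2, against 6639 and 5343 of Cyp21a1, that is 1.72% and 1.20% of its reads. Its annotated transcript is 91.5% identical to the coding transcript of Cyp21a1 over 1473 aligned columns, and 38 and 20 reads followed its annotated chain. Reads of near-identical stretches could be placed at either copy, and the part of this in the joined reads was not tested. Of 14 listed neighbours on the chromosome, 12 were tested, none passed with a 2-fold change, and 3 were higher in replicate 1 at an adjusted p under 0.05 (C4a, Cyp21a2-ps and Atf6b), against the 3.16% and 3.34% of all genes tested that passed these rules. Tnxa, which overlaps exon 10 on the other strand, had 2 reads and 0 reads.

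The deposited classes describe these forms with labels that depend on the library. Known held 80.8% of Cyp21a1 reads in replicate 1 and 85.7% in replicate 2, and ISM, an incomplete match to an annotated transcript, held 11.03% and 6.89%. NIC, new combinations of annotated sites, held 4.08% and 2.94%, NNC, with an unannotated site, 2.35% and 1.87%, and Genomic 1.76% and 2.56%. In Fisher's exact test the shares of Known, ISM and NIC were unequal (adjusted p = 9.9e-11, 7.7e-13 and 0.028), and NNC and Genomic did not pass (0.50 and 0.066). Over all 4171 pairs of gene and class tested, 3.84% passed.

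Of the 66 chains present in both libraries, however, 11 had one class in replicate 1 and another in replicate 2. That is 16.7%, against 2.20% of 19924 shared chains of all other genes. Both counts include chains of the Known class, and 65 of the 66 Cyp21a1 chains were not the annotated chain. The 2 shares were not matched for this. The chain that keeps intron 3 was deposited as ISM in replicate 1, with 14 reads, and as NIC in replicate 2, with 23. The chain that keeps intron 6 without the junction of intron 1 was NIC in replicate 1, with 30 reads, and ISM in replicate 2, with 7. The chain with the acceptor 25 bases into exon 2 was NNC with 22 reads and ISM with 14, although the site is in no annotated Cyp21a1 transcript. By number this was the most of any gene, before Cyp11b1 with 9 of 36 chains, Slc25a3 with 7 of 19 and Cyp11a1 with 6 of 59. By share Cyp11b1 (25%) and Slc25a3 (36.8%) lay above Cyp21a1 and Cyp11a1 (10.2%) below it.

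**Figure D4:**
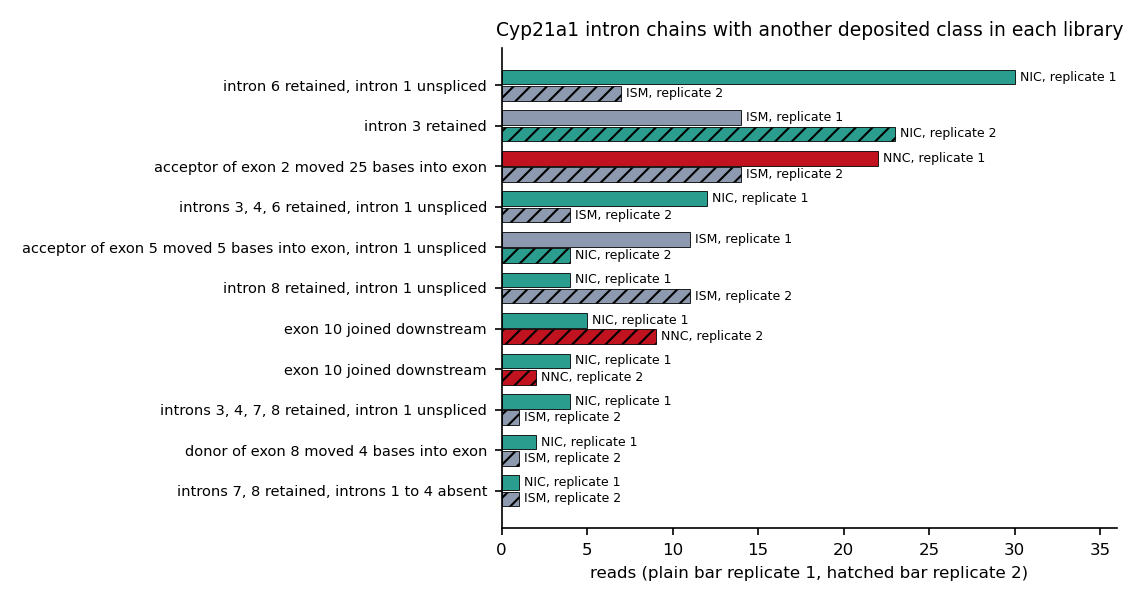
The 11 Cyp21a1 intron chains whose deposited class differs between the libraries, with their reads in replicate 1 (plain bars) and replicate 2 (hatched bars); colour and label give the class (grey ISM, teal NIC, red NNC). The 3 chains with the most reads hold 30 and 7, 14 and 23, and 22 and 14 reads.

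The forms that passed the test of shares depended on these labels. Within the full-length classes 4 of 21 Cyp21a1 forms passed, against 1.03% of 1939 forms of all genes. They were the annotated chain, at 92.6% in replicate 1 and 94.7% in replicate 2 (Fisher's exact test, adjusted p = 0.0019), and the 3 relabelled chains just named, which stood at 30 and 0, 0 and 23, and 22 and 0 reads. Counted over all spliced classes the 3 chains had 30 and 7, 14 and 23, and 22 and 14 reads, and their adjusted p in Fisher's exact test was 0.12, 0.55 and 1. None of those 3 forms thus passed the adjusted test once the class labels were set aside. For the chain with 30 and 7 reads the Wilson intervals still did not overlap. They were 0.32% to 0.66% of spliced reads in replicate 1 and 0.065% to 0.28% in replicate 2.

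Among abundant genes Cyp21a1 had the most forms by the count it was chosen on. It had 11 forms with at least 5 reads in each library within the full-length classes, against a median of 2 over 61 genes with at least 500 spliced full-length reads in each library. Cyp11a1 had 7 and Cyp11b1, the 11-beta-hydroxylase that completes corticosterone, had 5. Depth differed among these genes, so the expected number of forms in 500 full-length reads was also computed. It was 26.3 in replicate 1 and 19.5 in replicate 2, ranks 3 and 5 of 61, with medians of 7.41 and 6.30. The genes were not matched for number of introns, which was 9 in the leading form of Cyp21a1. Acly and Abcb1b, above it in both libraries, had 27 each. Pkm with 10 and Cyp11b1 with 8 lay above it in replicate 2 only. Unannotated forms held 7.37% and 5.31% of its full-length reads, ranks 8 and 9, with medians of 1.41% and 1.33%. They include 159 and 43 reads with intron 1 unspliced by model span, which cannot be told apart from reads that stop short. The form with introns 3 and 4 kept and intron 1 unspliced, 20 and 10 reads, is of this kind and is among the 11.

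**Figure D5:**
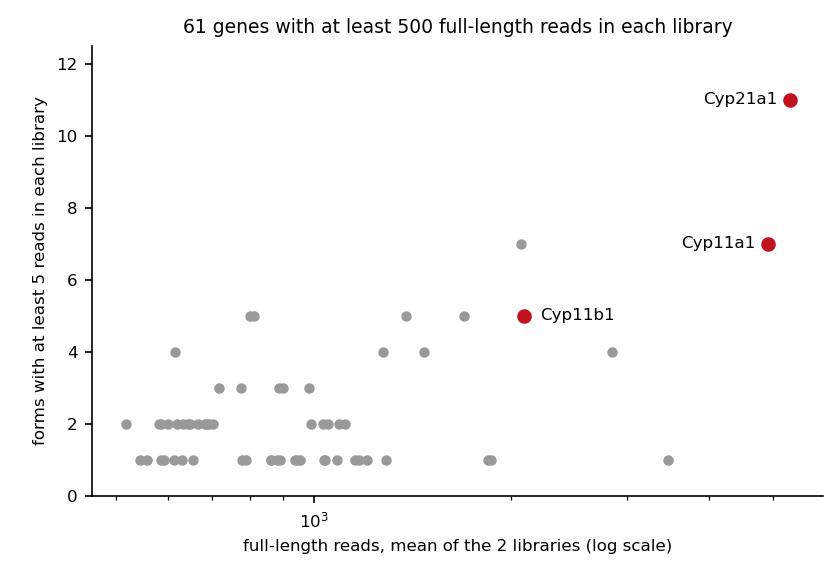
Forms with at least 5 reads in each library against full-length reads (mean of both libraries, log axis) for the 61 genes with at least 500 such reads in each library. Cyp21a1 has 11 forms and the most reads, Cyp11a1 has 7 and Cyp11b1 has 5 (red points); the median of the genes is 2.

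Internal intron retention, at 3.51% and 2.46% of spliced reads, ranked 4 and 1 of 52 genes with 3 or more introns, with medians of 0.17% and 0.039%. The chain that lacks only the first intron ranked 2 and 9 of 57 genes, with medians of 0.79% and 0.68%. In the shares of the 5 classes the nearest of 64 other genes with at least 500 full-length reads was Slc25a3, the mitochondrial phosphate carrier, at a mean Hellinger distance of 0.078 over the 2 libraries. Gnas, Acly, Cyp11b1 and Scarb1 followed, at 0.083 to 0.105.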

How the data were processed

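The data are long RNA reads of 2 adrenal gland libraries. Per the file headers, the authors deposited whole read counts per transcript model and library, without normalization, together with each library's models as an annotation file on mm10 with GENCODE M21; the columns are those of TALON. The aligner and the version of TALON were not given in the sources used here. Replicate 1 held 452437 endogenous reads of 458001 and replicate 2 held 463102 of 479002; spike-in reads were left out. With a floor of 3 counts, a gene at 0 could have 6.63 CPM in replicate 1 and 6.48 CPM in replicate 2.

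Models were joined to their exons, and forms were matched between libraries by intron chain. The main form test used the Known, NIC and NNC classes; counts over all spliced classes were added after seeing the data, as were retention between junctions and the grouping by structure. Shares carry Wilson 95% intervals. Two-sided Fisher's exact tests (scipy 1.17.1) ran over all annotated genes with at least 10 reads summed (log2 ratios after adding 1 CPM), over pairs of gene and class in genes with at least 50 reads in each library and 5 reads of the class summed, and over chains with at least 10 reads summed in genes with 50, with Benjamini-Hochberg adjustment and a threshold of 0.05. The functions were tested on simulated data. edgeR 4.0.16 and DESeq2 1.42.0 gave scaling factors only, since 1 group allows no replicated comparison. Named were Cyp21a1 and its forms with at least 5 reads in each library, the steroid list, the listed neighbours, the 5 nearest genes by class shares, and Cyp11a1 and Cyp11b1. Other junctions and genes were named after their values were seen. The members and lists were chosen with earlier results of these data known.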

Additional observations from a re-analysis of the deposited data

How the results depend on the processing

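The level moved by less than its SD under every alternative that used both libraries. The gene-level ratio kept its direction and its side of the threshold under every alternative run. So did the differences in Known, ISM, NIC and NNC with Genomic reads left out, which gives no value for Genomic itself. The level was 11537 and 14674 CPM with each library alone. With 2 libraries each value lies within the SD of the mean by construction, so this is no check of the level. The share of the leading form moved to 85.1% over all spliced classes, against 93.7% over full-length classes, and that of the unannotated forms to 14.9%, against 6.34%, since incomplete matches then count; with each library alone they ranged from 92.6% to 94.7% and from 5.31% to 7.37%. The number of forms, 11, became 43, 26 and 7 at minima of 1, 2 and 10 reads, and 23 over all spliced classes or 21 with those joined within 10 bases. The form tests with a pass became 2 in place of 4 over all spliced classes. In full-length classes alone, mean retention was 1.82% (intron 1), 1.35% (intron 3), 1.44% (intron 4), 0.085% (intron 5) and 1.11% (intron 6). By model span it was 7.05%, 1.52%, 3.00%, 1.20% and 1.74%. The change was larger than the SD between libraries for introns 1, 3, 4 and 5 and smaller for intron 6. With a junction on both sides it was 1.64% for intron 4 and 0.061% for intron 5. The cause was not tested.

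No paired analysis was possible because the study has 1 group. Comparisons between the libraries cannot be repeated with 1 library left out. Forms under 5 reads are limited by depth, and read ends, alleles and intron letters other than those of intron 8 were not analysed here.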

Other observations

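The pseudogene Cyp21a2-ps was spliced in several ways of its own. It had 30 models in replicate 1 and 25 in replicate 2, and its annotated chain held 38 of 114 reads and 20 of 64. The next chain held 13 and 12 reads, with another acceptor for intron 1, another donor for intron 7 and intron 6 not removed. A chain that kept its intron 5 held 12 and 5 reads.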
